A study of Mus musculus with 14 samples.

Results

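The *Ube2* genes encode most of the ubiquitin-conjugating enzymes of the mouse, and they were taken here as all genes whose symbol begins with Ube2. This rule found 35 genes, represented by 47 transcripts, among 20337 genes with a symbol and 26495 RefSeq transcripts in the count files, and each gene was read from its transcript with the highest mean count. The choice of genes rests on the symbol, and that of the transcript on its counts. All 35 genes had at least 1 count in some library, 34 passed the filter on low counts in every comparison, and *Ube2dnl2* did not, with 0 to 10 counts per library. Of the 35, *Ube2cbp* (also called *Ube3d*) carries the symbol of an E2 binding protein and is not itself an E2. Another 7 symbols of the RefSeq annotation match the same letters and were not analysed here.

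Ubiquitin is attached to proteins in a relay. An E1 enzyme activates ubiquitin, an E2 enzyme carries it on a cysteine, and an E3 ligase brings the loaded E2 to the substrate, so the E2 often decides which kind of chain is built. Related relays attach SUMO, NEDD8 and ISG15 to proteins through E2 enzymes of the same family. In oocytes, ubiquitination by the anaphase-promoting complex sets the levels of cyclin B and securin and thereby the timing of the meiotic divisions.

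The RNA-seq counts came from full-grown, germinal vesicle-intact oocytes of mice 4 to 6 weeks old, collected 48 h after priming with 5 IU of equine chorionic gonadotropin. There were 14 libraries of 20 oocytes each, pooled from several animals of the same genotype. The question addressed was how transcripts respond when oocytes lack the catalytic activity of AGO2, AGO2 itself, or DICER. The controls of the *Ago2* mutants were 3 *Ago2* fl/fl libraries, with floxed alleles and no Cre, a genotype the labels call wild-type. The 3 *Ago2* ADH libraries came from fl/ADH females with *Zp3*-driven Cre (Cre/+), so that after excision in the growing oocyte only the allele for catalytically inactive AGO2 remained, and *Ago2* ADH oocytes differed from their controls in allele number as well as in catalytic activity. The 2 *Ago2* null libraries came from fl/fl females with the same Cre (Cre/+), and all the *Ago2* genotypes arose in the same cross. The 3 *Dicer* KO libraries came from females with an oocyte-specific *Dicer* deletion and were compared with 3 *Dicer* WT libraries. Because Cre acts during oocyte growth, product made before excision may persist, and every group was a pool of oocytes from several females and not a set of single animals.

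Between 29380403 and 58285057 counts per library fell on transcripts, so that 3 counts corresponded to 0.0515 to 0.102 CPM (counts per 1000000 transcript counts). CPM given from here on were normalized by TMM over all 14 libraries. The log2 fold change of *Ago2* itself was -0.87 ± 0.09 (SE) in *Ago2* ADH libraries and -1.95 ± 0.13 in those of *Ago2* null. *Dicer1* counts were 2.39-fold higher in the libraries labelled *Dicer* KO than in *Dicer* WT. These counts cover the whole transcript and the place of the deletion within it was not given in the sources used here, so they check neither the deletion nor the labels, and each direction given for *Dicer* KO is that of the libraries so labelled. All 10 oocyte markers examined were detected in every group, with a summed level of 10626 to 16186 CPM. The 12 cumulus and granulosa cell markers summed to 31.8 to 68.1 CPM, of which the aromatase gene *Cyp19a1* held the most. *Kitl* stood at 4.05 to 5.72 CPM and *Cyp11a1* at 0.0976 to 7.49 CPM, while *Foxl2* and *Amh* reached at most 0.143 and 0.278 CPM in any library. The summed granulosa level was 41.2 to 47.6 CPM in *Ago2* fl/fl, 34.3 to 41.4 CPM in *Ago2* ADH and 31.8 to 32.5 CPM in *Ago2* null, and 59.0 to 68.1 CPM in *Dicer* WT and 54.1 to 56.5 CPM in *Dicer* KO. This sum thus moved with genotype, with an overlap of *Ago2* fl/fl and *Ago2* ADH, but its markers did not all move alike. *Cyp19a1* went from 30.6 to 36.2 CPM in *Ago2* fl/fl down to 20.5 to 24.7 CPM in *Ago2* ADH. *Cyp11a1* went from 0.953 to 1.96 CPM up to 2.29 to 7.49 CPM in the same groups. The part of granulosa transcripts in the results was not tested. Alignments that were not unique moved with genotype, with 55.7 to 59.7 per 100 transcript counts in *Ago2* fl/fl, 158 to 166 in *Ago2* ADH, 157 to 166 in *Ago2* null, 38.8 to 53.6 in *Dicer* WT and 93.9 to 119 in *Dicer* KO. Up to 100 alignments per read were kept, so 1 read can enter this tally more than once, and it is not a share of reads. These alignments were tallied apart from the transcript counts, and their part in the changes described here was not tested. Each library is a pool, so fewer transcripts per oocyte and fewer oocytes with the transcript cannot be told apart.

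In control oocytes the *Ube2* transcripts spanned more than 3 orders of magnitude per length. The counts of all 35 genes together made up 4847 to 4985 CPM in *Ago2* fl/fl, 4837 to 4995 CPM in *Ago2* ADH and 4913 to 5084 CPM in *Ago2* null oocytes, ranges that overlapped. They made up 4747 to 4950 CPM in *Dicer* WT and 5195 to 5497 CPM in *Dicer* KO oocytes, ranges that did not overlap. Per length, 5 genes stood highest in the mean of both control groups. *Ube2d3*, of the promiscuous UBCH5 class that serves many E3 ligases, reached 260 ± 3.25 CPM per kb (SD, n = 3) in *Ago2* fl/fl and 244 ± 4.91 in *Dicer* WT. *Ube2w*, which attaches ubiquitin to the amino terminus of proteins, reached 214 ± 14.4 CPM per kb in *Ago2* fl/fl and 263 ± 7.77 in *Dicer* WT. *Ube2t*, the E2 of the Fanconi anaemia pathway of DNA crosslink repair, reached 311 ± 12.7 CPM per kb in *Ago2* fl/fl and 161 ± 3.93 in *Dicer* WT. *Ube2d2a*, also of the UBCH5 class, and *Ube2h*, the E2 of the CTLH ligase, followed at 161 ± 18.7 and 147 ± 4.87 CPM per kb in *Ago2* fl/fl and at 192 ± 13.2 and 178 ± 9.81 in *Dicer* WT.

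The order of these genes was not the same in both control groups, since *Ube2t* had rank 1 in *Ago2* fl/fl and a lower rank than *Ube2w*, *Ube2d3*, *Ube2d2a* and *Ube2h* in *Dicer* WT. In *Ago2* fl/fl, *Ube2c*, *Ube2d2a* and *Ube2h*, at 169 ± 12.9, 161 ± 18.7 and 147 ± 4.87 CPM per kb, were neighbours, and the ranges of mean ± SD overlapped between *Ube2c* and *Ube2d2a* and between *Ube2d2a* and *Ube2h*. The order also depends on the transcript length used, which is 543 bases for *Ube2w*, 3833 bases for *Ube2d3* and 4657 bases for *Ube2h*. With the longest GENCODE transcript of each gene instead, an alternative chosen after seeing the data, *Ube2h* had rank 1, *Ube2w* rank 9 and *Ube2d3* rank 11. At the low end, *Ube2e2* stood at 1.49 ± 0.04 CPM per kb and *Ube2ql1*, a gene related to the *Ube2q* class, at 0.27 ± 0.10 in *Ago2* fl/fl. *Ube2dnl2*, a *Ube2d*-like gene on the X chromosome, had 3 to 6 counts per *Ago2* fl/fl library and 0 or 1 in *Dicer* WT libraries, so its level was at or near the limit of 3 counts.

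**Figure D1:**
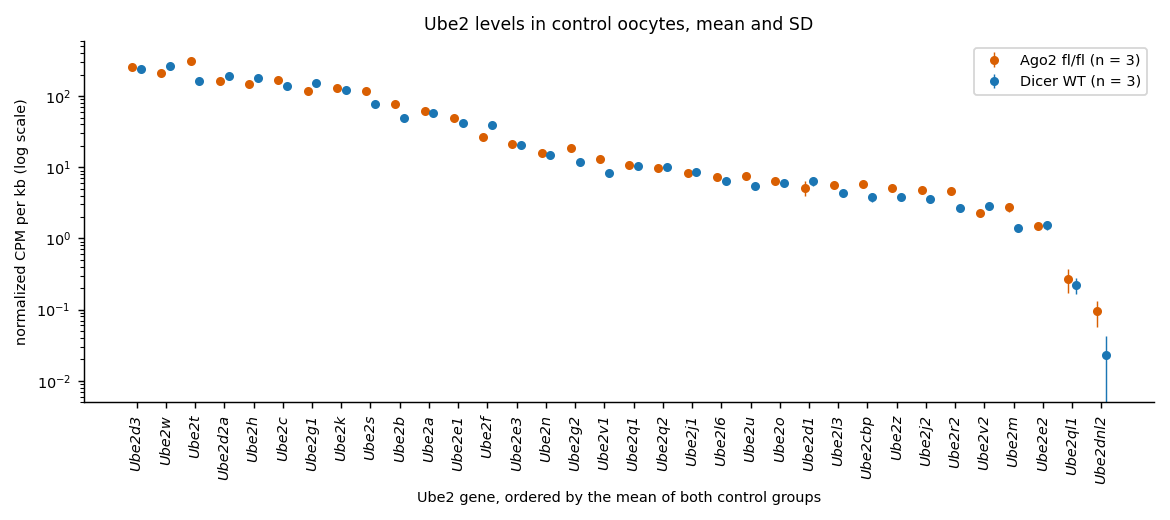
Level of 34 of the 35 *Ube2* genes in the 2 groups of control oocytes, in normalized CPM per kb of transcript on a log axis (points, group mean; bars, SD; n = 3 per group). Genes run from *Ube2d3*, at 252 CPM per kb in the mean of both groups, to *Ube2dnl2* at 0.0587.

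In each mutant *Ube2* transcripts were called mis-regulated in both directions, and the largest called changes were increases. Among all genes, too, called increases of at least 2-fold outnumbered such decreases. Transcripts were called mis-regulated at an FDR of 1% by the quasi-likelihood test of edgeR, and every adjusted p given is that of this test after Benjamini-Hochberg adjustment over all transcripts tested. In *Ago2* ADH oocytes 20 of the 34 tested genes were called, 13 up and 7 down, against 40.9% of all genes tested. In *Ago2* null oocytes 17 were called, 12 up and 5 down, against 37.3% of all genes. In *Dicer* KO oocytes 14 were called, 10 up and 4 down, against 34.5% of all genes. Up-regulated genes were 21% of all genes tested in *Ago2* ADH, 18.6% in *Ago2* null and 16.9% in *Dicer* KO, and down-regulated genes 19.8%, 18.7% and 17.6%. Increases of at least 2-fold numbered 4, 3 and 5 *Ube2* genes in the 3 mutants, against 9.4%, 8.66% and 8.22% of all genes, and no *Ube2* gene was called with a decrease of at least 2-fold, against 3.91%, 4.23% and 4.62% of all genes. The libraries of mutant and control did not overlap, with the mutant higher, for 16, 15 and 16 of the 34 tested genes, against 27.6%, 32% and 27.6% of all genes, and with the mutant lower for 11, 8 and 7, against 32.8%, 35.1% and 27.1%. The median log2 fold change of the tested *Ube2* genes was 0.13, 0.07 and 0.09 in the 3 comparisons, and that of all transcripts was 0.0069, 0.0018 and -0.0044. The *Ago2* ADH and *Ago2* null comparisons share the *Ago2* fl/fl libraries, so they are not independent of each other.

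By gene, 7 were called up in all 3 mutants (*Ube2c*, *Ube2e1*, *Ube2e2*, *Ube2l3*, *Ube2q2*, *Ube2r2* and *Ube2v1*) and 3 were called down in all 3 (*Ube2e3*, *Ube2h* and *Ube2u*). A further 5 were called up in both *Ago2* mutants but not in *Dicer* KO (*Ube2f*, *Ube2l6*, *Ube2q1*, *Ube2v2* and *Ube2z*), and *Ube2g1* was called down in both *Ago2* mutants but not in *Dicer* KO. There were 4 genes called in *Dicer* KO and in neither *Ago2* mutant, among them *Ube2a*, *Ube2b* and *Ube2n*, and 5 called in 1 *Ago2* mutant alone (*Ube2d2a*, *Ube2d3*, *Ube2s*, *Ube2t* and *Ube2w*). The remaining 9 tested genes passed the threshold in no comparison with controls. No gene was called in opposite directions in different mutants. A call in 1 mutant and none in another does not show a difference, which was tested separately for *Ago2* ADH and *Dicer* KO and is given at the end.

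**Figure D2:**
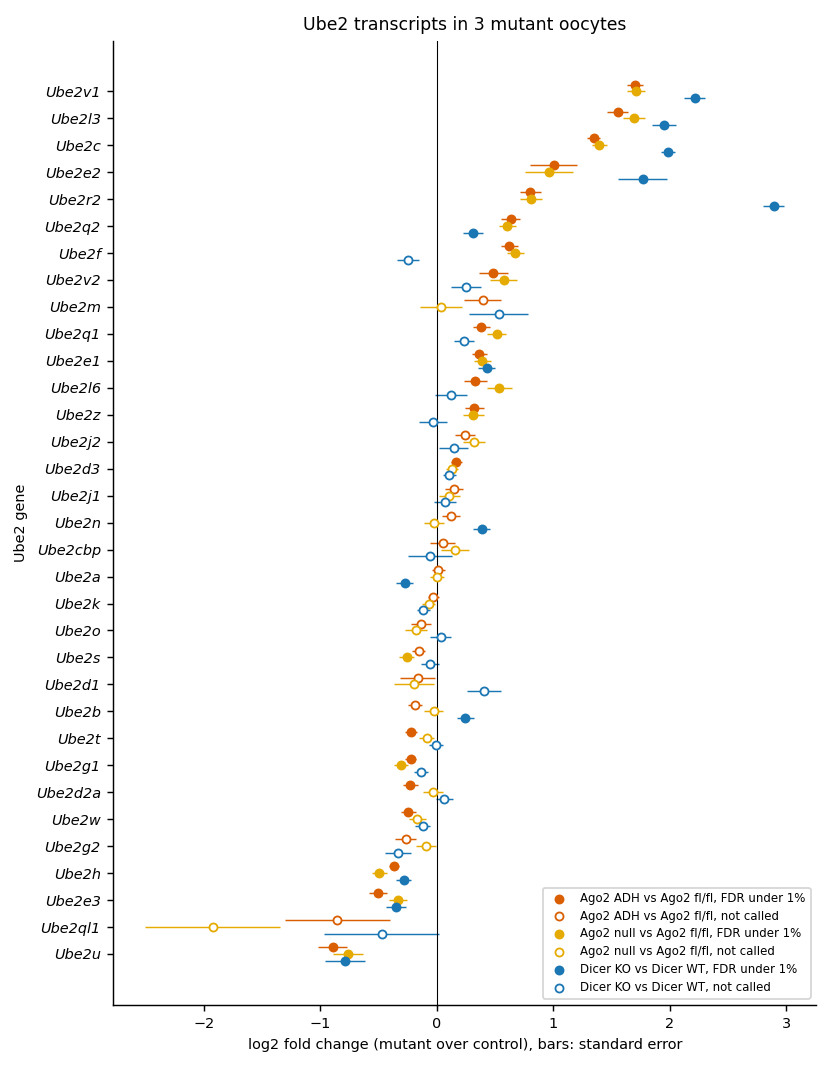
Log2 fold change of 33 of the 34 tested *Ube2* genes in *Ago2* ADH, *Ago2* null and *Dicer* KO oocytes over their controls (points; bars, standard error). Filled points passed an FDR of 1% and open points did not. *Ube2v1*, *Ube2l3* and *Ube2c* stand at the top in both *Ago2* mutants, *Ube2r2* extends farthest in *Dicer* KO at 2.89, and *Ube2u* is the lowest of the called genes in each comparison.

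The 250 bases before the annotated start are shown for *Ube2c*, *Ube2v1*, *Ube2l3*, *Ube2r2* and *Ube2u*, on the coding strand from 5′ to 3′, so that they can be compared with each other. These genes were called in all 3 mutants, but the windows of *Ube2e2* and of the other genes so called are not shown. The windows shown are the sequences of RefSeq for GRCm38.p6, at chr2:164769679-164769928 (+) for *Ube2c*, chr2:167632006-167632255 (-) for *Ube2v1*, chr16:17201493-17201742 (-) for *Ube2l3*, chr4:41135771-41136020 (+) for *Ube2r2* and chr4:100478617-100478866 (+) for *Ube2u*. Capitals mark matches on either strand to the CCAAT box (CCAAT), the cell cycle homology region (TTTGAA), the GC box (GGGCGG) and the TATA box (TATAAA), and overlapping matches run together.
Ube2c: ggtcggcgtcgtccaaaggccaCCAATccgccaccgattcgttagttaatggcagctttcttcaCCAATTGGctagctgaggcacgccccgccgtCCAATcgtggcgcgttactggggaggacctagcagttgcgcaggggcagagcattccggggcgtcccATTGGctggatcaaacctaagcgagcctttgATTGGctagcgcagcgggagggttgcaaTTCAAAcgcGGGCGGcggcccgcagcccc
Ube2v1: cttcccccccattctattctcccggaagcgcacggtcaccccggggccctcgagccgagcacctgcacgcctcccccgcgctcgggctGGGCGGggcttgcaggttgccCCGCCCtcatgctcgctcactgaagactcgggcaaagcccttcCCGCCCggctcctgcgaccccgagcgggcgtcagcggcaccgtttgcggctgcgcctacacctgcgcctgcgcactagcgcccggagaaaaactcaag
Ube2l3: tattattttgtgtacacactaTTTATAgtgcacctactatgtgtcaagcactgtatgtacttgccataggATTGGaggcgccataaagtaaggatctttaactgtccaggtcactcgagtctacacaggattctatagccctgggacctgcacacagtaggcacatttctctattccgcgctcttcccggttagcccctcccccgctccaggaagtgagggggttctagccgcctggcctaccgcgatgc
Ube2r2: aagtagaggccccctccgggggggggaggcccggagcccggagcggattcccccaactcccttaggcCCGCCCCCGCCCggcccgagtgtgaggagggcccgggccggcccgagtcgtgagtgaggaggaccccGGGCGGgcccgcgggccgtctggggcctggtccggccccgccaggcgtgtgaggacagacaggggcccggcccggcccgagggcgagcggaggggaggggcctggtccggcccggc
Ube2u: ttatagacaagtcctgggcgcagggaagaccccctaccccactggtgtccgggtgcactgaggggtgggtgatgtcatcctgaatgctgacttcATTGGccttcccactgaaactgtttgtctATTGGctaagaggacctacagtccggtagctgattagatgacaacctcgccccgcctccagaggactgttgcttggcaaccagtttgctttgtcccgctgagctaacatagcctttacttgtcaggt
*Ube2c* carried CCAAT matches, the cell cycle homology region and a GC box, the combination known from genes of the cell cycle. *Ube2v1* and *Ube2r2* held GC boxes, *Ube2l3* a CCAAT and a TATA match, and *Ube2u* CCAAT matches. Over 32851 promoter windows of the same length, 33.8% held CCAAT, 16% TTTGAA, 32.7% GGGCGG and 12.4% TATAAA, against 8, 3, 27 and 4 of the 39 windows of genes with a *Ube2* symbol in that annotation. GC made up 62.4% of the *Ube2c* window, 70.8% of that of *Ube2v1*, 50.8% of that of *Ube2l3*, 80.4% of that of *Ube2r2* and 53.6% of that of *Ube2u*. The median GC content was 69.2% in *Ube2* windows and 52.4% in all windows. The E-box CACGTG was in 6.02% of all windows and 2 of the *Ube2* windows. These matches describe sequence only, and which start site oocytes used was not measured. For *Ube2v1* and *Ube2l3* the annotated start at which the window ends lies within the gene span given for them.

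The E2 enzymes of the anaphase-promoting complex moved apart. *Ube2c* encodes the E2 that starts ubiquitin chains on the substrates of this complex, and *Ube2s* the E2 that extends them. *Ube2c* (NM_026785) lies on chr2:164769929-164772902 of GRCm38. It measured 149, 169 and 172 CPM in the *Ago2* fl/fl libraries, 389, 423 and 394 CPM in *Ago2* ADH and 433 and 409 CPM in *Ago2* null. It measured 134, 127 and 143 CPM in *Dicer* WT and 535, 522 and 542 CPM in *Dicer* KO. Every mutant library lay above every control library, and the *Dicer* KO libraries were the highest. The log2 fold changes were 1.35 ± 0.06 in *Ago2* ADH (adjusted p = 3.8e-13), 1.40 ± 0.07 in *Ago2* null (adjusted p = 2.93e-11) and 1.98 ± 0.06 in *Dicer* KO (adjusted p = 7.44e-15), which is 2.54-fold, 2.63-fold and 3.95-fold.

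*Ube2s* did not share this increase. It measured 155, 151 and 139.5 CPM in *Ago2* fl/fl, 123, 136 and 127 CPM in *Ago2* ADH and 125 and 118 CPM in *Ago2* null. It measured 90.9, 97.6 and 99.5 CPM in *Dicer* WT and 101, 93.8 and 82.8 CPM in *Dicer* KO. The *Ago2* mutant libraries lay below the controls, while the *Dicer* groups overlapped. The decrease was called in *Ago2* null alone (log2 fold change -0.26 ± 0.06, adjusted p = 0.00271), and the call was lost without *Ago2* fl/fl library 1 or 2 or without *Ago2* null library 2 (adjusted p = 0.0114, 0.0233 and 0.0237). In *Ago2* ADH and *Dicer* KO the log2 fold changes of *Ube2s* were -0.16 ± 0.05 and -0.06 ± 0.08, with adjusted p = 0.0207 and 0.555.

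As the ratio of counts per base within a library, *Ube2c* to *Ube2s* was 1.23 to 1.58 in *Ago2* fl/fl, 3.97 to 4.05 in *Ago2* ADH and 4.44 to 4.45 in *Ago2* null, and it was 1.67 to 1.89 in *Dicer* WT and 6.80 to 8.38 in *Dicer* KO. The ranges of mutants and controls did not overlap. The ratio needs no scaling between libraries, but its pairs were chosen with the changes known, so it is given as a description without a test. About 15.9% of the *Ube2c* transcript is at least 95% identical over 50 or more bases to transcripts of 34 other genes, and reads from that stretch can carry several alignments.

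Of the transcripts for UBC13 and its inactive E2 variants, that of the variant *Ube2v1* rose most in every mutant. *Ube2n* encodes UBC13, the catalytic E2, while *Ube2v1* and *Ube2v2* encode partners that lack the active cysteine and steer UBC13 towards chains used in signalling and DNA repair. *Ube2v1* (NM_023230) spans chr2:167607639-167632020 of GRCm38 on the minus strand. It measured 24.8, 28.3 and 26.4 CPM in *Ago2* fl/fl, 84.2, 83.5 and 82.5 CPM in *Ago2* ADH and 83.2 and 86.3 CPM in *Ago2* null. It measured 15.7, 19.0 and 15.9 CPM in *Dicer* WT and 76.7, 78.9 and 79.0 CPM in *Dicer* KO. The 8 mutant libraries fell in a narrow band from 76.7 to 86.3 CPM, far above all 6 control libraries. *Ube2v1* was the *Ube2* gene with the highest log2 fold change in both *Ago2* mutants, 1.70 ± 0.07 in *Ago2* ADH (adjusted p = 1.06e-13) and 1.71 ± 0.08 in *Ago2* null (adjusted p = 1.25e-11), and it rose by 2.21 ± 0.09 in *Dicer* KO (adjusted p = 2.5e-13).

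*Ube2v2* rose less, by 0.48 ± 0.12 in *Ago2* ADH (adjusted p = 0.00321) and 0.57 ± 0.11 in *Ago2* null (adjusted p = 0.000562), and its log2 fold change in *Dicer* KO was 0.25 ± 0.13 (adjusted p = 0.118). *Ube2n* was called in *Dicer* KO alone, where it rose by 0.39 ± 0.07 (adjusted p = 0.000278) from 54.7 to 61.7 CPM up to 72.1 to 77.9 CPM. Its log2 fold changes in *Ago2* ADH and *Ago2* null were 0.12 ± 0.08 and -0.02 ± 0.09. The ratio of *Ube2v1* to *Ube2n* in counts per base was 0.744 to 0.870 in *Ago2* fl/fl, 2.30 to 2.54 in *Ago2* ADH and 2.65 to 2.73 in *Ago2* null, and 0.482 to 0.657 in *Dicer* WT and 1.86 to 2.07 in *Dicer* KO. The variant partner thus passed from below to above the level of the catalytic E2 in all 8 mutant libraries. Along 82.0% of its length *Ube2v1* overlaps the readthrough gene *Gm20431* on the same strand, so the counts do not tell these transcripts apart, and 24.4% is nearly identical to 4 other genes. *Tmem189*, the upstream gene of the readthrough, was at 2.31 to 3.74 CPM in all libraries and was not called in any mutant (log2 fold changes -0.31 ± 0.18, -0.09 ± 0.19 and 0.30 ± 0.24).

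**Figure D3:**
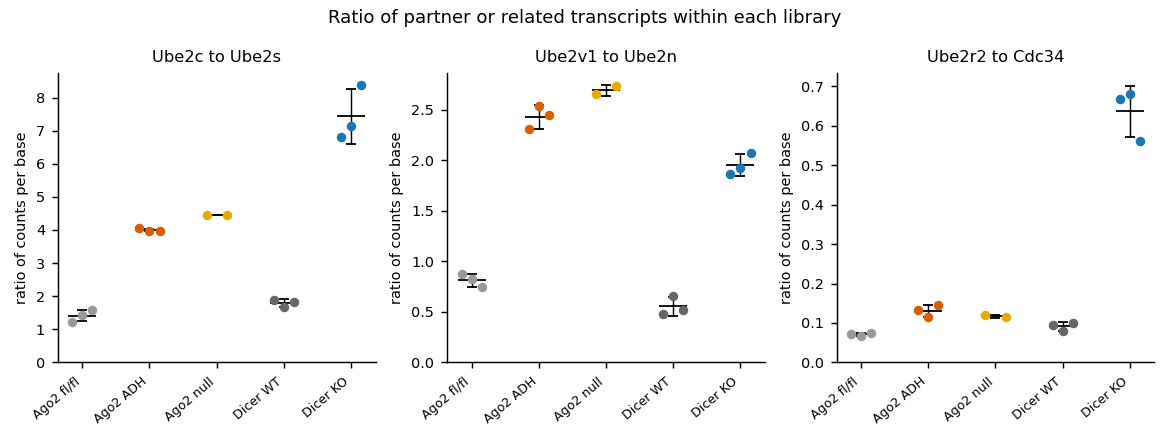
Ratio of counts per base of 3 pairs of transcripts in each library: *Ube2c* to *Ube2s*, *Ube2v1* to *Ube2n* and *Ube2r2* to *Cdc34* (points, libraries; bars, group mean and SD; n = 3, or 2 for *Ago2* null). In each panel the mutant libraries lie above those of their controls, and for *Ube2r2* to *Cdc34* the *Dicer* KO libraries, at 0.562 to 0.680, stand apart from all others.

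*Ube2l3*, which encodes UBCH7, the E2 of HECT and RBR ligases such as Parkin, rose as *Ube2v1* did. The gene (NM_009456) spans chr16:17152015-17201512 on the minus strand. It measured 13.2, 15.5 and 15.8 CPM in *Ago2* fl/fl, 44.9, 40.8 and 40.4 CPM in *Ago2* ADH and 47.6 and 46.3 CPM in *Ago2* null. It measured 11.9, 12.1 and 9.97 CPM in *Dicer* WT and 46.2, 42.6 and 42.4 CPM in *Dicer* KO. No mutant library was below 40.4 CPM and no control library was above 15.8 CPM. Log2 fold changes were 1.55 ± 0.09 (adjusted p = 3.1e-11), 1.69 ± 0.09 (adjusted p = 2.12e-10) and 1.95 ± 0.10 (adjusted p = 1.48e-11) in *Ago2* ADH, *Ago2* null and *Dicer* KO. *Arih2*, which encodes an RBR ligase that works with UBCH7, rose in all 3 mutants (log2 fold changes 2.03 ± 0.12, 1.94 ± 0.12 and 1.72 ± 0.15, with adjusted p of at most 1.82e-08). *Arih1*, another RBR ligase that works with UBCH7, fell in *Ago2* ADH and *Ago2* null (-0.20 ± 0.05 and -0.21 ± 0.06, adjusted p = 0.00109 and 0.00742) and was not called in *Dicer* KO (-0.02 ± 0.06, adjusted p = 0.795). About 17.9% of the *Ube2l3* transcript is nearly identical to 8 pseudogenes, and 7.17% is overlapped on the opposite strand by *Ydjc*, which stood at 0.103 to 0.985 CPM.

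*Ube2r2* had the largest increase of the family in *Dicer* KO oocytes and a smaller one in the *Ago2* mutants. It encodes an E2 of the CDC34 class, which builds chains on the substrates of cullin-RING ligases such as SCF. The gene (NM_026275) spans chr4:41136021-41193370, and no stretch of its transcript met the criteria for near-identity to, or overlap with, another gene. It measured 18.1, 15.8 and 16.5 CPM in *Ago2* fl/fl, 28.2, 26.0 and 30.8 CPM in *Ago2* ADH and 28.8 CPM in both *Ago2* null libraries. It measured 9.91, 8.96 and 9.78 CPM in *Dicer* WT and 73.3, 73.2 and 66.8 CPM in *Dicer* KO. The *Ago2* mutant libraries lay above their controls, and the *Dicer* KO libraries lay above all others. The log2 fold changes were 0.80 ± 0.09 (adjusted p = 5.23e-07), 0.81 ± 0.09 (adjusted p = 1.84e-06) and 2.89 ± 0.09 (adjusted p = 7.39e-15), or 1.74-fold, 1.75-fold and 7.43-fold.

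*Cdc34*, another member of this class, was at 74.4 to 88.8 CPM in the *Ago2* groups and 34.1 to 41.8 CPM in the *Dicer* groups. The ratio of *Ube2r2* to *Cdc34* in counts per base was 0.0677 to 0.0738 in *Ago2* fl/fl, 0.115 to 0.145 in *Ago2* ADH, 0.114 to 0.120 in *Ago2* null, 0.0785 to 0.101 in *Dicer* WT and 0.562 to 0.680 in *Dicer* KO. *Ube2r2* thus remained the less abundant of the pair per length in all 14 libraries.

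The genes of the *Ube2e* class, whose products carry an extension at the amino terminus, moved in different directions. *Ube2e2* measured 2.27, 2.33 and 2.21 CPM in *Ago2* fl/fl, 4.07, 3.47 and 5.71 CPM in *Ago2* ADH and 3.73 and 4.93 CPM in *Ago2* null. It measured 2.41, 1.97 and 2.67 CPM in *Dicer* WT and 9.95, 7.22 and 6.88 CPM in *Dicer* KO. The mutant libraries were all above their controls but were spread widely. Log2 fold changes were 1.00 ± 0.20 (adjusted p = 0.000362), 0.96 ± 0.20 (adjusted p = 0.000872) and 1.77 ± 0.21 (adjusted p = 1.44e-06), and the call in *Ago2* null was lost without *Ago2* null library 2 (0.75, adjusted p = 0.0257). *Ube2e1* rose by 0.37 ± 0.07, 0.39 ± 0.07 and 0.43 ± 0.07 in the 3 mutants (adjusted p = 0.000167, 0.000218 and 7.33e-05). Of its transcript length, 51% is overlapped on the opposite strand by *Nkiras1*, which was counted at 136 to 273 CPM and whose log2 fold changes were 0.17 ± 0.06, 0.24 ± 0.07 and 0.12 ± 0.06, none of them called. A pseudogene is nearly identical to 35% of it.

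*Ube2e3* fell. It measured 47.1, 47.8 and 50.3 CPM in *Ago2* fl/fl, 33.3, 30.5 and 35.2 CPM in *Ago2* ADH and 37.9 and 37.2 CPM in *Ago2* null. It measured 42.3, 48 and 48.6 CPM in *Dicer* WT and 36.4, 35.7 and 37.1 CPM in *Dicer* KO. The 8 mutant libraries lay below the 6 control libraries. The log2 fold changes were -0.51 ± 0.07 (adjusted p = 1.22e-05), -0.33 ± 0.07 (adjusted p = 0.00142) and -0.35 ± 0.08 (adjusted p = 0.002), and the *Dicer* KO call was lost without *Dicer* KO library 2 or *Dicer* WT library 2 or 3 (adjusted p = 0.0117, 0.0114 and 0.0124).

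The other genes called down in all mutants were *Ube2h* and *Ube2u*. *Ube2h* measured 708, 678 and 663 CPM in *Ago2* fl/fl, 523, 512 and 503 CPM in *Ago2* ADH and 516 and 435 CPM in *Ago2* null. It measured 797, 812 and 883 CPM in *Dicer* WT and 734, 667 and 649.7 CPM in *Dicer* KO. Within each experiment the mutant libraries lay below the controls. Log2 fold changes were -0.37 ± 0.04 (adjusted p = 1.14e-06), -0.49 ± 0.07 (adjusted p = 1.35e-05) and -0.28 ± 0.06 (adjusted p = 0.00119), the last not called without *Dicer* KO library 2 (-0.27, adjusted p = 0.0127). Nearly identical sequence of 3 other genes covers 63.1% of the *Ube2h* transcript.

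*Ube2u*, a little studied member (NM_001033773, chr4:100478867-100550145), had the largest called decreases. It measured 11.2, 11 and 12.8 CPM in *Ago2* fl/fl, 6.09, 6.74 and 5.34 CPM in *Ago2* ADH and 6.59 and 6.86 CPM in *Ago2* null. It measured 8.38, 9.31 and 7.68 CPM in *Dicer* WT and 5.50, 4.16 and 5.05 CPM in *Dicer* KO. Mutant and control libraries did not overlap within either experiment. The log2 fold changes were -0.89 ± 0.12 (adjusted p = 6.46e-06), -0.76 ± 0.13 (adjusted p = 0.000119) and -0.79 ± 0.17 (adjusted p = 0.00105).

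**Figure D4:**
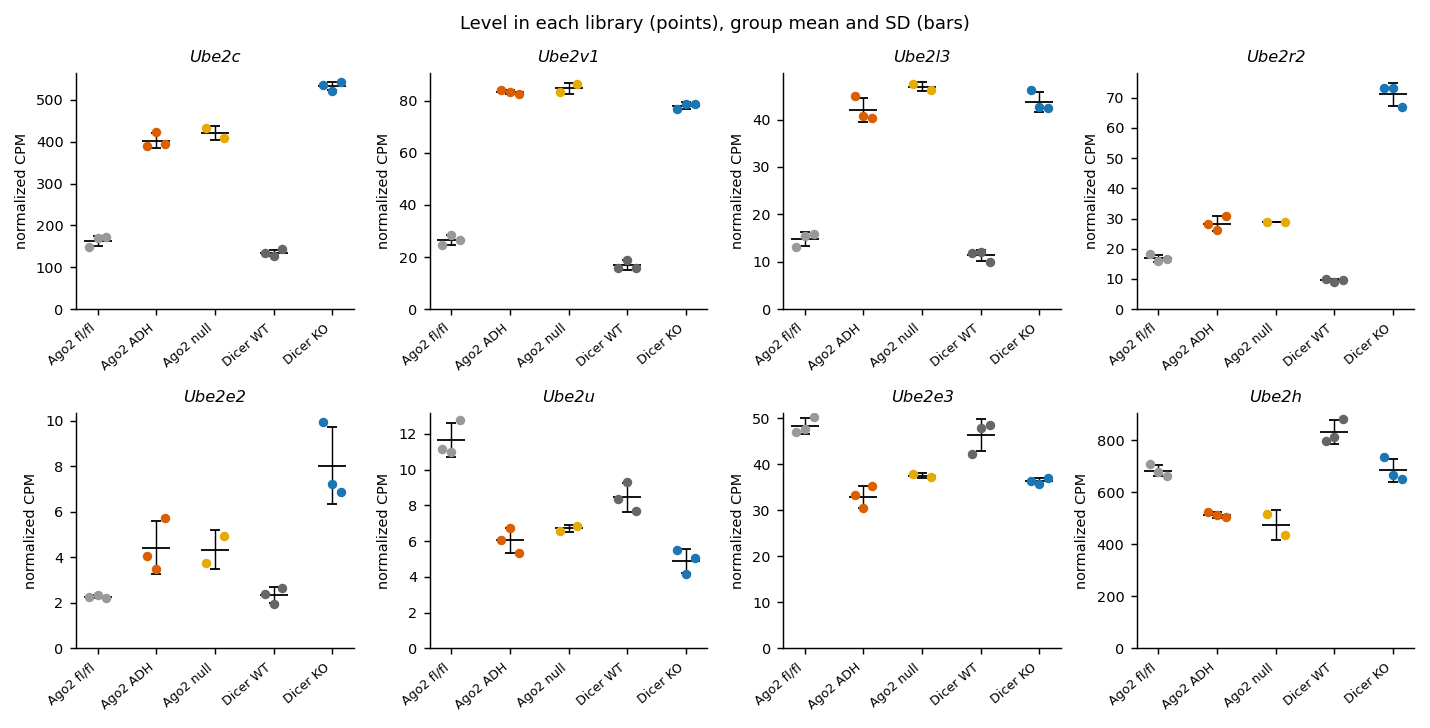
Level of 8 *Ube2* genes in each of the 14 libraries, in normalized CPM from an axis that starts at 0 (points, libraries; bars, group mean and SD; n = 3, or 2 for *Ago2* null). In the panels of *Ube2c*, *Ube2v1*, *Ube2l3*, *Ube2r2* and *Ube2e2* every mutant library lies above its controls, and in those of *Ube2u*, *Ube2e3* and *Ube2h* every mutant library lies below.

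Among the E2 genes of ubiquitin-like proteins, *Ube2f* and *Ube2l6* rose in both *Ago2* mutants. *Ube2f*, which loads NEDD8 for a subset of cullins, measured 36.4, 36.6 and 34.9 CPM in *Ago2* fl/fl, 50.4, 59.2 and 51.2 CPM in *Ago2* ADH and 54.4 and 57.8 CPM in *Ago2* null. It measured 53.7, 49.7 and 57.4 CPM in *Dicer* WT and 49.8, 48.1 and 37.9 CPM in *Dicer* KO. Both *Ago2* mutants lay above *Ago2* fl/fl, while the *Dicer* groups overlapped by 1 library of each. Log2 fold changes were 0.62 ± 0.07 (adjusted p = 5.53e-07), 0.67 ± 0.07 (adjusted p = 9.99e-07) and -0.25 ± 0.10 (adjusted p = 0.0427, not called). A pseudogene shares 40.9% of the *Ube2f* transcript.

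*Ube2m*, the other NEDD8 E2, was not called in any mutant (log2 fold changes 0.39 ± 0.16, 0.04 ± 0.18 and 0.53 ± 0.25). *Ube2l6*, the E2 of ISG15, rose by 0.33 ± 0.10 in *Ago2* ADH (adjusted p = 0.00945) and 0.54 ± 0.11 in *Ago2* null (adjusted p = 0.000561). Its level was 11.2 to 11.5 CPM in *Ago2* fl/fl, 12.8 to 14.4 CPM in *Ago2* ADH and 15.1 to 17.0 CPM in *Ago2* null. Nearly identical sequence of 5 other genes covers 32.7% of the *Ube2l6* transcript.

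*Ube2d3*, *Ube2d2a*, *Ube2t* and *Ube2w*, 4 of the 5 genes highest per length, were called in *Ago2* ADH and in no other mutant. *Ube2d3* rose in *Ago2* ADH by 0.17 ± 0.04 (adjusted p = 0.00344), from 999, 981 and 1005 CPM to 1025, 1110.4 and 1111 CPM, and measured 1023 and 1109.9 CPM in *Ago2* null. It measured 919.7, 957 and 933 CPM in *Dicer* WT and 1033, 958 and 1041 CPM in *Dicer* KO, where it was not called. The *Ago2* ADH call was lost without *Ago2* ADH library 3 or *Ago2* fl/fl library 2 (adjusted p = 0.0147 and 0.0265) and in a fit of all 14 libraries (adjusted p = 0.0527). *Ube2d2a* fell in *Ago2* ADH by 0.23 ± 0.06 on the log2 scale (adjusted p = 0.0042), from 448, 392 and 356 CPM to 325, 333 and 331 CPM. It measured 346 and 416 CPM in *Ago2* null, 469, 447 and 512 CPM in *Dicer* WT and 558, 478 and 461 CPM in *Dicer* KO. These last groups overlapped their controls, and the *Ago2* ADH call was lost without *Ago2* ADH library 1 or *Ago2* fl/fl library 1 or 2 (log2 fold changes -0.23, -0.14 and -0.24, adjusted p = 0.0183, 0.027 and 0.0126). *Ube2d1*, a further member of the UBCH5 class, was not called in any mutant (log2 fold changes -0.16 ± 0.15, -0.19 ± 0.17 and 0.40 ± 0.15).

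*Ube2t* measured 352, 359 and 332 CPM in *Ago2* fl/fl, 282, 312 and 273 CPM in *Ago2* ADH and 299 and 342 CPM in *Ago2* null, and 181, 184 and 175 CPM in *Dicer* WT and 190.1, 182 and 166 CPM in *Dicer* KO. It was called down in *Ago2* ADH (-0.22 ± 0.05, adjusted p = 0.00153) and not in *Ago2* null (-0.09 ± 0.06, adjusted p = 0.28) or *Dicer* KO, and the call in *Ago2* ADH is one that was lost without *Ago2* fl/fl library 2 (adjusted p = 0.0163). The *Dicer* groups all stood below the *Ago2* groups for this gene, and mouse line and any batch of libraries cannot be told apart in that difference. *Ube2w* measured 125, 112 and 112 CPM in *Ago2* fl/fl, 89.4, 91.5 and 103 CPM in *Ago2* ADH and 93.0 and 109.6 CPM in *Ago2* null, and 147, 139 and 143 CPM in *Dicer* WT and 142, 128 and 124 CPM in *Dicer* KO. Both *Ago2* null libraries also lay below the controls, but the decrease was called in *Ago2* ADH (-0.25 ± 0.06, adjusted p = 0.00328) and not in *Ago2* null (-0.17 ± 0.08, adjusted p = 0.0803), and not in *Ago2* ADH without *Ago2* ADH library 1 or 2 or *Ago2* fl/fl library 1 (adjusted p = 0.0247, 0.0127 and 0.0202).

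Of the 5 genes for E2 enzymes of endoplasmic reticulum associated degradation or of proteasomal chains, *Ube2g1* fell in both *Ago2* mutants and the others were not called. *Ube2g1* measured 465, 461 and 435 CPM in *Ago2* fl/fl, 372, 363 and 393 CPM in *Ago2* ADH and 337 and 381 CPM in *Ago2* null, with no overlap, and 607, 559 and 591 CPM in *Dicer* WT and 553, 511 and 536 CPM in *Dicer* KO. The log2 fold changes were -0.22 ± 0.05 (adjusted p = 0.000744), -0.31 ± 0.06 (adjusted p = 0.000567) and -0.14 ± 0.06 (adjusted p = 0.065), and the *Ago2* null call was lost without *Ago2* null library 1 (-0.22, adjusted p = 0.0107). *Ube2g2*, *Ube2j1*, *Ube2j2* and *Ube2k* had log2 fold changes between -0.33 and 0.32 in the 3 comparisons.

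The genes of the RAD6 class, which ubiquitinate histone H2B and the replication clamp, were called in *Dicer* KO alone and in opposite directions. *Ube2a* fell from 101, 94.1 and 104 CPM to 75.8, 86.1 and 85.9 CPM (log2 fold change -0.28 ± 0.07, adjusted p = 0.00398). *Ube2b* rose from 94.4, 84.1 and 89.6 CPM to 115, 103 and 100.1 CPM (0.24 ± 0.07, adjusted p = 0.00922). The 3 KO libraries lay outside the WT range for each gene, but neither call was firm. The *Ube2a* call was lost without *Dicer* KO library 1 or *Dicer* WT library 1 or 3 (adjusted p = 0.0253, 0.0147 and 0.0208). The *Ube2b* call was lost without *Dicer* KO library 1 or 2 or *Dicer* WT library 2 or 3 (adjusted p = 0.0616, 0.0199, 0.0584 and 0.0212), in a fit of all 14 libraries (adjusted p = 0.0102) and in a fit of 1 transcript per gene (adjusted p = 0.0108). In the *Ago2* groups *Ube2a* stayed between 101 and 110.2 CPM, and *Ube2b* measured 153, 141 and 129 CPM in *Ago2* fl/fl, 115, 122 and 122 CPM in *Ago2* ADH and 121 and 149 CPM in *Ago2* null.

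Of the remaining genes, *Ube2q2* rose in all 3 mutants (0.63 ± 0.08, 0.60 ± 0.07 and 0.31 ± 0.09, adjusted p = 3.72e-06, 4.2e-06 and 0.00671). A pseudogene shares 32.9% of the *Ube2q2* transcript. *Ube2q1* rose in *Ago2* ADH and *Ago2* null (0.38 ± 0.07 and 0.51 ± 0.08, adjusted p = 0.000226 and 5.62e-05), as did *Ube2z*, which takes ubiquitin or FAT10 from the E1 enzyme UBA6 (0.32 ± 0.08 and 0.31 ± 0.09, adjusted p = 0.00284 and 0.00906). *Ube2o*, which combines E2 and E3 activity, and *Ube2cbp* had log2 fold changes between -0.18 and 0.16 and were not called. *Ube2ql1*, with 9 to 54 counts per library, had log2 fold changes of -0.85 ± 0.45, -1.92 ± 0.58 and -0.47 ± 0.49 and was not called (adjusted p = 0.123, 0.0108 and 0.462), although its *Ago2* null libraries lay below every *Ago2* fl/fl library and it passed an FDR of 5% there.

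The 2 *Ago2* mutants were then compared with each other, which asks whether *Ube2* levels differ between oocytes with catalytically inactive AGO2 and oocytes without AGO2. No *Ube2* gene passed an FDR of 1% with edgeR's quasi-likelihood test or with DESeq2, and 3 had an unadjusted p below 0.05 in edgeR. Of all genes, 0.12% were called and 10.1% had an unadjusted p below 0.05. The 34 log2 differences of *Ago2* ADH over *Ago2* null ranged from -0.23 to 1.05, the highest being that of *Ube2ql1* (1.05 ± 0.63), and all others were at most 0.34. For the genes with the largest changes the differences were -0.07 ± 0.06 for *Ube2c*, -0.03 ± 0.07 for *Ube2v1*, -0.16 ± 0.08 for *Ube2l3* and -0.03 ± 0.10 for *Ube2r2*. None of these differences exceeded 2 standard errors.

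The *Ago2* ADH effect was compared with the *Dicer* KO effect in a model with an interaction term over 12 libraries, and 5 of the 34 *Ube2* genes differed at an FDR of 1%, against 3.74% of all genes. The *Ago2* ADH change was the higher one for 1 of them, against 1.29% of all genes, and the lower one for 4, against 2.45%. *Ube2r2* differed most, its change being 2.14 ± 0.12 lower on the log2 scale in *Ago2* ADH than in *Dicer* KO (adjusted p = 3.76e-11). The increases of *Ube2c* and *Ube2v1* were likewise smaller in *Ago2* ADH, with differences of -0.69 ± 0.08 (adjusted p = 9.07e-06) and -0.56 ± 0.11 (adjusted p = 0.00158). For *Ube2b* the difference was -0.48 ± 0.10 (adjusted p = 0.00249), its log2 fold change being -0.19 ± 0.06 in *Ago2* ADH and 0.24 ± 0.07 in *Dicer* KO, and the difference was not called without *Ago2* ADH library 1, *Ago2* fl/fl library 1 or *Dicer* WT library 2 (adjusted p = 0.0123, 0.0106 and 0.0125). *Ube2f* differed the other way by 0.82 ± 0.13 (adjusted p = 0.000195). *Ube2e2* and *Ube2l3* showed differences of -0.82 ± 0.29 and -0.45 ± 0.13 that were not called (adjusted p = 0.0884 and 0.0382). The *Ago2* and *Dicer* libraries came from different mouse lines and differ in depth and in the tally of alignments that were not unique. An effect of the mutation and one of the line or batch therefore cannot be told apart.

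**Figure D5:**
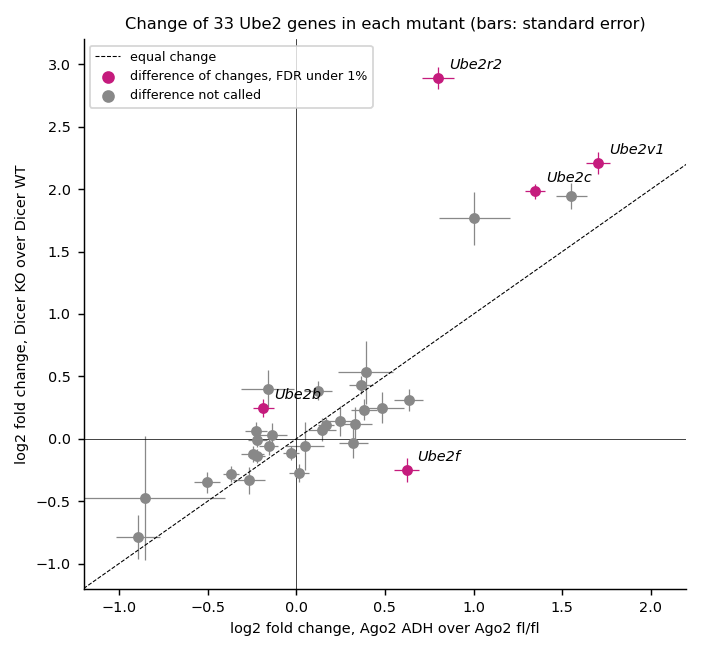
Log2 fold change of 33 *Ube2* genes in *Ago2* ADH over *Ago2* fl/fl oocytes (horizontal axis) and in *Dicer* KO over *Dicer* WT oocytes (vertical axis), with standard errors as bars and a dashed line of equal change. The 5 named genes differed between the mutants at an FDR of 1%, *Ube2r2*, *Ube2c*, *Ube2v1* and *Ube2b* above the line and *Ube2f* below it.

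The other genes of the ubiquitin relay changed in both directions. Of 75 such genes 72 were tested, and 20 were up and 14 down in *Ago2* ADH, 17 up and 14 down in *Ago2* null and 11 up and 12 down in *Dicer* KO. This is 47.2%, 43.1% and 31.9% called, against 40.9%, 37.3% and 34.5% of all genes. In a fit of all 14 libraries the *Ago2* ADH counts were 13 up and 17 down. The median log2 fold changes of the 72 genes were 0.02, 0.06 and 0.03.

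Of 11 genes for ubiquitin and similar modifiers, 6, 6 and 3 rose in *Ago2* ADH, *Ago2* null and *Dicer* KO and none was called down, where 21%, 18.6% and 16.9% of all genes were called up and 19.8%, 18.7% and 17.6% down. *Fau*, which encodes a ubiquitin-like protein fused to a ribosomal protein, rose in *Ago2* ADH and *Ago2* null (0.40 ± 0.05 and 0.34 ± 0.06, adjusted p = 1.23e-06 and 0.000118), and so did *Nedd8* (0.28 ± 0.06 and 0.43 ± 0.07, adjusted p = 0.000551 and 0.000122). *Sumo2* rose in *Dicer* KO (0.43 ± 0.07, adjusted p = 5.49e-05) and *Ago2* ADH (0.19 ± 0.05, adjusted p = 0.00405).

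Of 10 tested E1 genes, 2 rose and 2 fell in each *Ago2* mutant and 1 rose and 2 fell in *Dicer* KO, which is 40%, 40% and 30% called against 40.9%, 37.3% and 34.5% of all genes. Counts assigned to *Uba1y*, a Y-linked copy of *Uba1* with which it can share reads, went from 0.152 to 0.224 CPM in *Ago2* fl/fl to 0.713 to 1.04 CPM in *Ago2* ADH and 0.840 to 0.915 CPM in *Ago2* null (log2 fold changes 2.32 ± 0.45 and 2.29 ± 0.52, adjusted p = 0.000252 and 0.00153). They stood at 0.668 to 1.47 CPM in *Dicer* WT and 1.14 to 2.08 CPM in *Dicer* KO. The oocytes came from females, so these counts cannot be read as expression of *Uba1y*, although it is among the E1 genes counted as up in both *Ago2* mutants. The source of these reads was not tested. *Uba7*, the E1 of ISG15, went from 0.0517 to 0.174 CPM in *Dicer* WT to 0.358 to 0.782 CPM in *Dicer* KO (2.15 ± 0.61, adjusted p = 0.007). Its 0.0517 CPM in *Dicer* WT library 1 lay below the limit of 3 counts there, 0.0780 CPM, so low counts limit this change. *Uba3*, the catalytic subunit of the NEDD8 E1, fell in all 3 (-0.47 ± 0.07, -0.44 ± 0.08 and -0.55 ± 0.07, adjusted p = 2.54e-05, 0.000252 and 2.06e-06).

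Of 8 E2 and E2-like genes with other symbols, 2 rose and 2 fell in *Ago2* ADH, 1 rose and 2 fell in *Ago2* null and 2 fell in *Dicer* KO, which is 50%, 37.5% and 25% called against the same shares of all genes. *Atg10*, the E2-like enzyme of autophagy, had the largest change, from 9.83 to 13.4 CPM in *Ago2* fl/fl down to 3.31 to 3.57 CPM in *Ago2* ADH and 3.34 to 3.93 CPM in *Ago2* null, and from 8.07 to 10.4 CPM in *Dicer* WT down to 2.99 to 3.51 CPM in *Dicer* KO (log2 fold changes -1.71 ± 0.14, -1.65 ± 0.16 and -1.51 ± 0.18, with adjusted p of at most 1.37e-06). *Ufc1*, the E2 of UFM1, rose in *Ago2* ADH and *Ago2* null (0.79 ± 0.10 and 0.88 ± 0.11, adjusted p = 4.52e-06 and 5.11e-06), and *Aktip*, an inactive E2 variant, fell in *Ago2* ADH and *Dicer* KO (-0.31 ± 0.09 and -0.41 ± 0.10, adjusted p = 0.00682 and 0.00175).

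The subunits and regulators of the anaphase-promoting complex, 17 genes, had 3 up and 2 down in *Ago2* ADH, 3 up and 1 down in *Ago2* null and 3 up and 3 down in *Dicer* KO. This is 29.4%, 23.5% and 35.3% called, against 40.9%, 37.3% and 34.5% of all genes. *Fbxo5*, which encodes the inhibitor EMI1 of this complex, rose in all 3 (0.51 ± 0.06, 0.48 ± 0.07 and 0.67 ± 0.07, adjusted p = 9.04e-07, 1.58e-05 and 3.59e-07). The subunit gene *Anapc10* also rose in all 3 (0.40 ± 0.09, 0.44 ± 0.09 and 0.35 ± 0.10, adjusted p = 0.00102, 0.000805 and 0.00829), and the activator gene *Fzr1* in the *Ago2* mutants (0.44 ± 0.07 and 0.43 ± 0.07, adjusted p = 1.76e-05 and 0.00017). The subunit gene *Cdc27* fell in all 3 (-0.39 ± 0.04, -0.41 ± 0.05 and -0.26 ± 0.06, adjusted p = 6.83e-07, 6.28e-06 and 0.00146). The subunit genes *Anapc13* and *Anapc1* fell in *Dicer* KO (-0.81 ± 0.16 and -0.39 ± 0.06, adjusted p = 0.000418 and 3.81e-05).

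Of 26 tested genes for E3 partners, 7 rose and 8 fell in *Ago2* ADH, 5 rose and 9 fell in *Ago2* null and 4 rose and 5 fell in *Dicer* KO, which is 57.7%, 53.8% and 34.6% called against 40.9%, 37.3% and 34.5% of all genes. Besides *Arih2*, *Hltf*, a ligase that works with UBC13 at stalled replication forks, rose in all 3 (1.69 ± 0.08, 1.32 ± 0.09 and 1.59 ± 0.11, with adjusted p of at most 3.67e-09). *Traf6*, a signalling ligase that uses the same E2, fell in *Ago2* ADH and *Dicer* KO (-1.10 ± 0.29 and -1.63 ± 0.33, adjusted p = 0.00341 and 0.000499). Its change in *Ago2* null, -1.12 ± 0.35, was not called (adjusted p = 0.0146), and its level was 0.514 to 3.16 CPM. Of the other genes of this list, *Rnf139* (-1.24, -1.23 and -1.10), *Ubr1* (-0.81, -1.06 and -1.06) and *Shprh* (-0.60, -0.59 and -0.59) fell in all 3, and *Pias1* rose in all 3 (0.46, 0.42 and 0.46). *Rnf168* fell in the *Ago2* mutants (-0.57 and -0.54) and rose in *Dicer* KO (1.49).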

How the data were processed

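The values the authors deposited are raw counts of reads per RefSeq transcript in 14 libraries, not normalized. To make them the authors amplified cDNA of oocyte lysates, aligned paired reads with TopHat to mm10 (GRCm38) and refGene transcripts and counted them with htseq-count without regard to strand, in a mode that tallies reads with several alignments apart. The labels name TopHat2 2.0.7, HTSeq 0.6.1 and DESeq 1.10.0. The methods give separate alignment settings for shorter and longer reads, without saying which libraries had which. Genotype and replicate number were taken from the labels, which hold 2 *Ago2* null libraries.

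IDs were matched to symbols through RefSeq (26081) and GENCODE (113), and 301 had none. Each comparison was fitted on its own libraries and on all transcripts with edgeR 4.0.16 in R 4.3.3 (filterByExpr with a minimum count of 10 and total of 15, TMM, quasi-likelihood test, Benjamini-Hochberg adjustment, FDR 1%). Fold changes come from these fits, whereas CPM use TMM factors over all libraries and lengths come from GENCODE vM21. Percentages of all genes use 1 transcript per gene. Standard errors are the absolute log2 fold change divided by the root of F. Replicates of every group differed by more than counting noise (chi-square per degree of freedom 6.35 to 14.3). Replicates came from repeated collections of oocytes, so p-values measure the spread between such pools. Amplified cDNA was read without molecular identifiers, so the limit of 3 counts covers counting error only. The script was tested on simulated data.

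Values in every library are given for up to 5 called genes with the largest increase and decrease and without overlap in each mutant comparison, the 5 highest per-length levels in controls, both E2 enzymes of the anaphase-promoting complex, and genes called between the mutants. For the other genes of the relay the 2 largest called changes per list and comparison are named where reported. *Arih1*, *Anapc1*, *Cdc27*, *Pias1*, *Rnf139*, *Rnf168*, *Shprh* and *Ubr1* were added after values were seen. The genes, lists and rules were chosen with earlier results of these data known. Partner ratios and overlapping neighbour genes were added after values were seen. Near-identical stretches were found with BLAST 2.17.0 (at least 95% identity over 50 bases). Alternatives were DESeq2 1.42.0, RLE normalization, no count filter, an FDR of 5%, 1 transcript per gene, all groups in 1 fit, each replicate left out, and the replicate number as a block. Counts are over all members, but single-gene results for 1 member and 3 other genes of the relay are not reported here.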

Additional observations from a re-analysis of the deposited data

Results flagged for a closer look

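The effects of *Ago2* ADH and *Dicer* KO differed for 5 *Ube2* genes at an FDR of 1% in the interaction test of edgeR. The difference of log2 fold changes (*Ago2* ADH minus *Dicer* KO) was -2.14 for *Ube2r2*, -0.69 for *Ube2c*, -0.56 for *Ube2v1*, -0.48 for *Ube2b* and 0.82 for *Ube2f*. *Ube2r2*, *Ube2c* and *Ube2v1* rose in both mutants, and *Ube2f* was called up in *Ago2* ADH and not called in *Dicer* KO. Alignments that were not unique, which the transcript counts do not use, averaged 161 per 100 transcript counts in *Ago2* ADH (161.045) and in *Ago2* null (161.093) and 103 in *Dicer* KO, against 57.2 in *Ago2* fl/fl and 45.8 in *Dicer* WT. No group has 4 or more libraries, so none was examined for a library far from the others.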

How the results depend on the processing

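The number of *Ube2* genes called stayed within 1.5 times the reported number under every alternative run. It was 17 to 26 of the 20 reported in *Ago2* ADH, 15 to 21 of 17 in *Ago2* null, 12 to 18 of 14 in *Dicer* KO, 5 to 7 of 5 for the difference of effects and 0 between the *Ago2* mutants, the upper ends being those at an FDR of 5%. Leaving out each library in turn gave 15 to 20, 13 to 16, 10 to 14, 4 to 5 and 0. For the 72 other genes of the relay these ranges were 25 to 32, 24 to 28 and 19 to 21 in the 3 mutants. Without 1 *Ago2* null library the spread of the other is assumed to be that of the other groups. Of 40 gene results named, none reversed under any alternative, 5 of 280 values from fits of all libraries and 28 of 259 with a library left out lost their call. These were changes of *Ube2a*, *Ube2b*, *Ube2d2a*, *Ube2d3*, *Ube2e2*, *Ube2e3*, *Ube2g1*, *Ube2h*, *Ube2s*, *Ube2t* and *Ube2w*, and the cause was not tested. The 280 values include those at an FDR of 5%, which repeat the reported fit and could not lose a call. The 40 results cover only the genes chosen by the rule for values in every library. Calls of other genes were not examined singly under the alternatives. Among these are *Ube2e1*, *Ube2l6*, *Ube2n*, *Ube2q1*, *Ube2q2*, *Ube2v2*, *Ube2z* and the other genes of the relay.

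Libraries of the same replicate number did not deviate together (correlations of deviations -0.126 to 0.0408), so the numbers give no pairing. With the replicate number as a block the counts of called *Ube2* genes were 19, 15, 12, 0 and 5. Among the gene results examined singly, *Ube2e3* in *Ago2* null (adjusted p = 0.0163) and *Ube2b* in *Dicer* KO (adjusted p = 0.0113) were not called. Low counts limit *Ube2ql1* and *Ube2dnl2* and, among the other genes of the relay, *Uba7*. Overlapping or near-identical sequence limits *Ube2v1*, *Ube2e1*, *Ube2h*, *Ube2f*, *Ube2q2* and *Ube2l6*.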
